A study of Homo sapiens with 6 samples.

Results

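The ERBB family of receptor tyrosine kinases and the growth factors that bind it were followed in OE-19 cells, a cell line of adenocarcinoma of the esophagogastric junction (AEG) that carries an amplification of *ERBB2*. The genes were chosen by symbol. They are the 4 receptors *EGFR*, *ERBB2*, *ERBB3* and *ERBB4* and the 6 ligands *AREG*, *EREG*, *HBEGF*, *TGFA*, *BTC* and *NRG1*, and together they are 10 of 60480 gene identifiers counted. Of these 10, 9 were among the 19778 genes with enough counts to be tested, and *NRG1* was not.

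ERBB receptors work in pairs. A ligand opens the outer part of EGFR, ERBB3 or ERBB4 so that it can pair, and the paired kinases phosphorylate tails that recruit the PI3K and RAS pathways. ERBB2 has no known soluble ligand of its own and is the favoured partner of the others, while ERBB3 has little kinase activity and is a strong docking site for PI3K. Amplified *ERBB2* is a known driver and drug target in tumours of the stomach and the esophagogastric junction.

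The study asked what changes in these cells when IGF2BP3, an RNA-binding protein that can hold on to and stabilise mRNAs, is lowered. Poly(A) RNA was sequenced from 3 libraries of cells with a control knockdown (shControl) and 3 of cells with an shRNA against *IGF2BP3* (IGF2BP3 KD), all grown in RPMI1640 with 10% fetal bovine serum and antibiotics. The sources used here do not say whether the 3 libraries of a group came from separate cultures, nor whether the 3 IGF2BP3 KD libraries carry the same shRNA. The p-values therefore measure the spread between these samples, which may be technical.

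The 6 libraries held 53453621 to 70026203 counts. *IGF2BP3* (ENSG00000136231) had 7416, 7363 and 6532 counts in the control libraries and 777, 792 and 794 in the IGF2BP3 KD libraries, so the labels matched the targeted gene. Scaled to library size (CPM, counts per 1e+06 counts) it went from 108 ± 2.92 (SD, n = 3) to 13.3 ± 0.996 (SD, n = 3), a log2 fold change of -3.03 (SE 0.06, adjusted p = 3.1e-10 by edgeR's quasi-likelihood test). The cells carried their epithelial label: 8 epithelial markers summed to between 6244 and 6331 CPM in control libraries and between 6203 and 6323 in IGF2BP3 KD libraries. At an adjusted p under 0.05 by edgeR, *EPCAM* and *CLDN7* rose with log2 fold changes of 0.15 and 0.13. *KRT8* and *KRT18* fell with -0.06 and -0.07, and the other epithelial markers did not pass. Of 10 markers of other cell types, 3 had enough counts to test, and *CD68* and *COL1A1* rose with log2 fold changes of 0.54 and 0.50. The exons of *CD68* share 1765 of 2163 bases with a long non-coding RNA gene on the same strand. The summed level of the 10 went from 54.5 to 61.4 CPM in control libraries to 83.3 to 83.8 in IGF2BP3 KD libraries. Without *CD68* and *COL1A1* it was 0.686 to 1.20 CPM against 0.483 to 1.19, and *CD3E*, which marks T cells, had 0 counts in all 6 libraries. Whether *CD68* and *COL1A1* have a part in the receptor and ligand results was not tested.

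Of the 9 genes tested, 2 fell and 2 rose on IGF2BP3 knockdown at an adjusted p under 0.05, against 10.6% of all tested genes lower, 9.87% higher and 20.4% called in either direction. Among the genes whose mean CPM was 10 or more, as it was for 5 of the 9, these shares were 19.3%, 16.5% and 35.8%. The groups did not overlap in 5 of the 9, against 35.8% of all tested genes. *ERBB3* fell, *EGFR* and *ERBB2* rose, and among the ligands *TGFA* fell. Fewer cells of a kind and less RNA per cell cannot be told apart in bulk RNA.

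The 3′ untranslated regions (3′ UTRs) of these genes differ in 2 words of 7 bases that an earlier analysis of the same libraries had picked out. GATTACT was found among genes that were lower and ACACATC among genes that were higher in IGF2BP3 KD, so the words describe these data and give no independent support. The 30-base windows of the tested receptors and ligands that hold a word are shown to let the sites be compared, with the word in capitals and the mRNA sense strand written 5′ to 3′. They come from the main coding transcripts of GENCODE v44, were matched to hg38, and all lie in the last exon.
ERBB3 site 1, chr12:56102337-56102366, plus strand: gagatatgaagGATTACTctccatatccct
ERBB3 site 2, chr12:56102541-56102570, plus strand: gagtagatattGATTACTatcataattcag
ERBB4, chr2:211377053-211377082, minus strand: aacccttttggGATTACTccagtaatcaac
EREG, chr4:74388561-74388590, plus strand: gaatgttatcgGATTACTgaattgtatcaa
BTC, chr4:74746386-74746415, minus strand: attgtcaccagGATTACTagtcaaacaaaa
EGFR, chr7:55206420-55206449, plus strand: aagagaggatgACACATCaaataataactc

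In *ERBB3* the word GATTACT begins at bases 293 and 497 of a 3′ UTR of 1450 bases. In *EGFR* the word ACACATC begins at base 814 of 6011. The other 3 genes with GATTACT hold it 1 time each, at base 6544 of 7898 in *ERBB4*, base 3764 of 3941 in *EREG* and base 273 of 1918 in *BTC*. The 3′ UTRs of *ERBB2*, *AREG*, *HBEGF* and *TGFA* hold neither word. *NRG1*, which was not tested, holds ACACATC 1 time in a 3′ UTR of 9644 bases. Only the sense strand of the 3′ UTR was searched. Of 13995 tested coding genes with a 3′ UTR, 7.66% held GATTACT, 0.765% held it at least 2 times and 9.49% held ACACATC.

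*ERBB3* (ENSG00000065361) encodes the receptor for neuregulins that signals mainly through its partners. The gene lies on the plus strand of chromosome 12 from 56076799 to 56103505 (hg38). Its CPM was 393, 390 and 397 in the control libraries and 141, 145 and 143 in the IGF2BP3 KD libraries. Every IGF2BP3 KD library was far below every control library, and the libraries of a group lay close together. The mean went from 393 ± 3.69 (SD, n = 3) to 143 ± 2.22 (SD, n = 3), which is 2.75-fold lower. The log2 fold change was -1.46 (SE 0.03, 95% interval -1.52 to -1.40), with an adjusted p of 2.5e-10 from the quasi-likelihood test of edgeR, adjusted by Benjamini-Hochberg. Among 19778 genes *ERBB3* ranked 1 by p-value and *IGF2BP3*, the gene that was targeted, ranked 2. With any 1 library left out the log2 fold change was between -1.47 and -1.45. *ERBB3* shares 31 exon bases with RP11-603J24.9, which had at most 1 count in any library.

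*EGFR* (ENSG00000146648), the receptor for most of the ligands measured here, moved the other way. It lies on the plus strand of chromosome 7 from 55019017 to 55211628. The control libraries held 63.8, 65.9 and 70.6 CPM and the IGF2BP3 KD libraries 112, 106 and 115. The groups were well apart, with the lowest IGF2BP3 KD library far above the highest control library. The mean went from 66.7 ± 3.48 (SD, n = 3) to 111 ± 4.43 (SD, n = 3), 1.66-fold higher, and the log2 fold change was 0.73 (SE 0.05, 95% interval 0.62 to 0.84, adjusted p = 2.2e-06 by edgeR). It stayed between 0.70 and 0.77 with any library left out. The antisense gene *EGFR-AS1* shares 186 exon bases with *EGFR*, and it held 22, 9 and 21 counts in control and 18, 8 and 26 in IGF2BP3 KD libraries, where *EGFR* held 4134 to 4588 and 6040 to 7221. The strand setting used in counting is not given in the sources used here.

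*ERBB2* (ENSG00000141736), the amplified receptor, was the second most abundant gene of all those tested by CPM and took 1.30% ± 0.0532 (SD, n = 3) of all counts in control libraries. It lies on the plus strand of chromosome 17 from 39687914 to 39730426. The CPM was 12478, 13396 and 13346 in the control libraries and 14124, 14234 and 14653 in the IGF2BP3 KD libraries. All IGF2BP3 KD libraries were above all control libraries, but by a margin that is small beside the level. The mean went from 13074 ± 516 (SD, n = 3) to 14337 ± 279 (SD, n = 3), 1.10-fold higher, with a log2 fold change of 0.13 (SE 0.03, 95% interval 0.08 to 0.19, adjusted p = 0.00303 by edgeR). With any library left out it was between 0.10 and 0.15, and the largest adjusted p was 0.0226. Exons of *ERBB2* overlap those of *MIEN1* and *PGAP3*, on the opposite strand, over 571 and 144 bases. When the counts of all 3 were summed the log2 fold change was 0.10 with an adjusted p of 0.00742 by edgeR.

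Of 3 neighbours of *ERBB2* on 17q12, *GRB7* and *MIEN1* were called lower and *PGAP3* was not called. *GRB7*, which encodes an adaptor that binds ERBB2, was 2809 ± 93.9 CPM in control and 2581 ± 29.1 in IGF2BP3 KD libraries (SD, n = 3 each), a log2 fold change of -0.12 (SE 0.02, adjusted p = 0.00371 by edgeR). The ratio of *ERBB2* to *GRB7* counts was 4.62, 4.69 and 4.65 in control libraries and 5.54, 5.47 and 5.66 in IGF2BP3 KD libraries. *MIEN1* had a log2 fold change of -0.09 (SE 0.03, adjusted p = 0.0262 by edgeR), a call that was lost without IGF2BP3 KD replicate 1 and without control replicate 2. *PGAP3* had 0.03 (SE 0.03, adjusted p = 0.531 by edgeR). The number of gene copies was not measured in these data.

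*ERBB4* (ENSG00000178568), the other neuregulin receptor, was scarce. It lies on the minus strand of chromosome 2 from 211375717 to 212538841. It held 6.72, 6.75 and 6.23 CPM in control libraries and 6.56, 7.15 and 7.68 in IGF2BP3 KD libraries. The groups overlapped. The log2 fold change was 0.12 (SE 0.12, 95% interval -0.14 to 0.38, adjusted p = 0.564 by edgeR). It was not called, and a change of any size inside that interval remains possible.

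**Figure D1:**
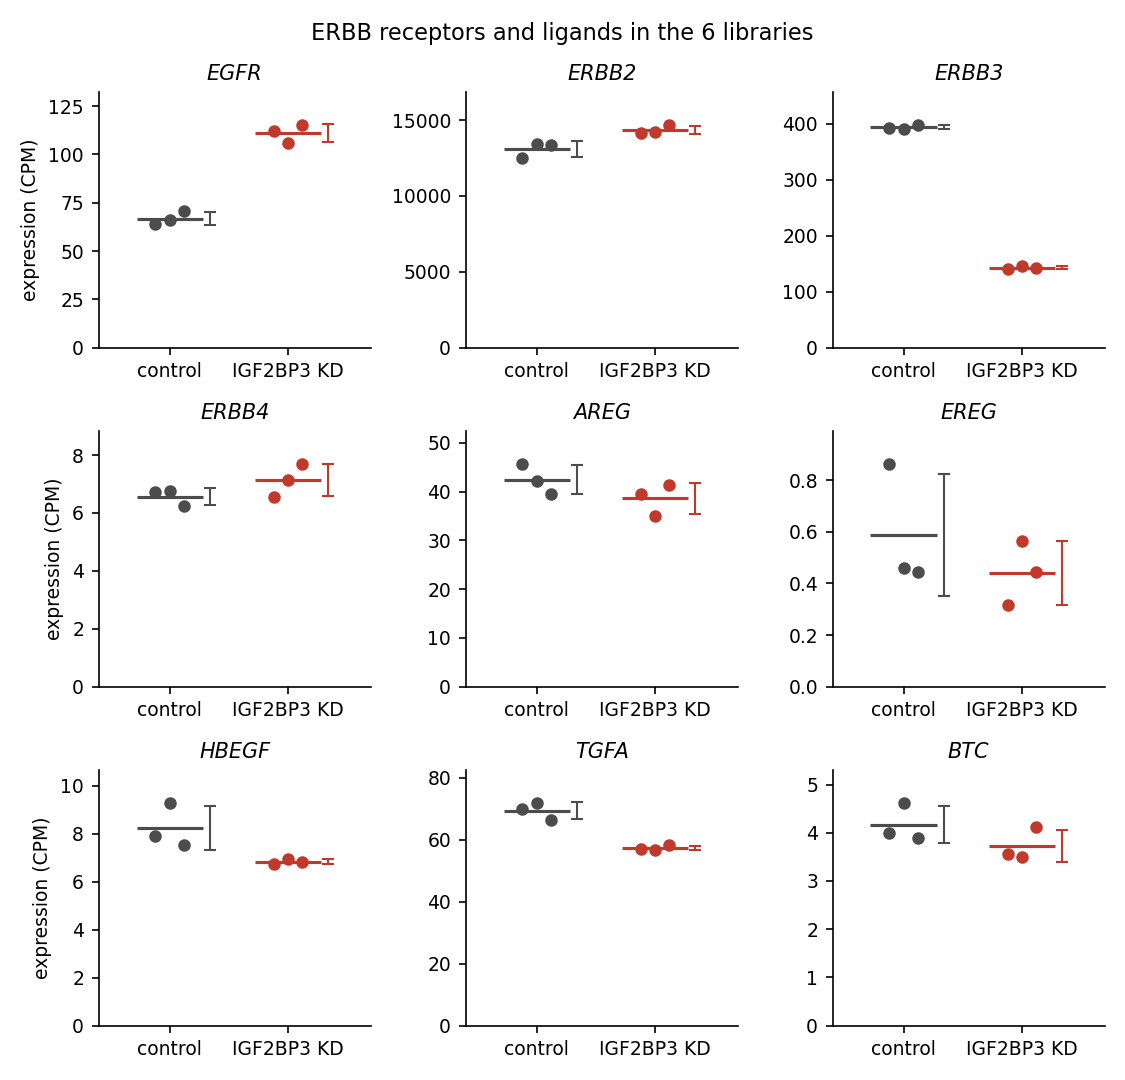
CPM of the 9 tested receptor and ligand genes in each library, 1 panel per gene, with control and IGF2BP3 KD libraries on the horizontal axis. Points are libraries, and the line and bar give the mean and SD of 3 libraries. The 3 IGF2BP3 KD points of *ERBB3* lie between 141 and 145 CPM, below control points of 390 to 397, whereas those of *EGFR* lie at 106 to 115 above control points of 63.8 to 70.6.

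Of the 5 ligands tested, 1 was called lower and 0 higher, against 1 lower and 2 higher of the 4 receptors. Over all tested genes 10.6% were lower and 9.87% higher. *TGFA* (ENSG00000163235), transforming growth factor alpha, an EGFR ligand released from the membrane by proteases, held 69.8, 71.7 and 66.3 CPM in control libraries and 57.0, 56.8 and 58.2 in IGF2BP3 KD libraries. All IGF2BP3 KD libraries were lower. The mean went from 69.3 ± 2.70 (SD, n = 3) to 57.3 ± 0.790 (SD, n = 3), 1.21-fold lower. The log2 fold change was -0.27 (SE 0.05, 95% interval -0.37 to -0.17, adjusted p = 0.00157 by edgeR), and between -0.31 and -0.25 with any library left out. The gene lies on the minus strand of chromosome 2 from 70447284 to 70554193.

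*HBEGF*, a heparin-binding ligand of EGFR and ERBB4, held 7.91, 9.27 and 7.55 CPM in control libraries and 6.73, 6.93 and 6.84 in IGF2BP3 KD libraries. The groups did not overlap, yet the spread among control libraries was wide. The log2 fold change was -0.27 (SE 0.12, 95% interval -0.53 to -0.01), with an unadjusted p of 0.0422 and an adjusted p of 0.143 by edgeR, so it did not pass the test.

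*AREG*, amphiregulin, was the most abundant ligand per length of exon. It held 45.6, 42.2 and 39.6 CPM in control libraries and 39.5, 35.0 and 41.3 in IGF2BP3 KD libraries, and the groups overlapped. The log2 fold change was -0.14 (SE 0.07, 95% interval -0.30 to 0.03, adjusted p = 0.243 by edgeR). *BTC*, betacellulin, held 4.0, 4.61 and 3.89 CPM against 3.56, 3.50 and 4.11, with a log2 fold change of -0.16 (SE 0.16, 95% interval -0.51 to 0.18, adjusted p = 0.545 by edgeR). *BTC* values of the groups also overlapped.

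*EREG*, epiregulin, was close to the limit of these data, with 59, 32 and 26 counts in control libraries and 17, 35 and 28 in IGF2BP3 KD libraries. The log2 fold change was -0.41 (SE 0.43, 95% interval -1.36 to 0.53, adjusted p = 0.584 by edgeR) and was -0.03 without control replicate 1, the library with the highest count. *NRG1*, the neuregulin that binds ERBB3 and ERBB4, had 1 count in 1 control library and 0 counts in the other 5 libraries. The 0 counts in IGF2BP3 KD allow a level of up to 0.0168 CPM over that group, a limit that covers counting error only. The ligands *EGF*, *EPGN*, *NRG2*, *NRG3* and *NRG4* were also too low to test. The highest count of any of them in a library was 37, for *EPGN* in control replicate 3.

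**Figure D2:**
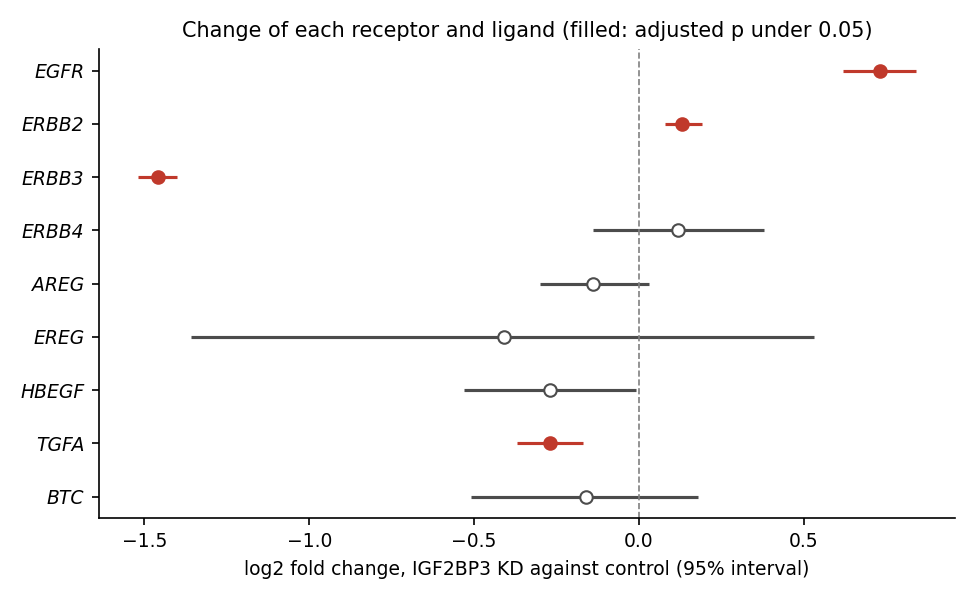
Log2 fold change of each tested receptor and ligand, IGF2BP3 KD against control, with its 95% interval from edgeR. Filled points have an adjusted p under 0.05. *ERBB3* at -1.46 stands apart from *EGFR* at 0.73, and the intervals of *ERBB4*, *AREG*, *EREG* and *BTC* include 0.

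Levels of different genes were compared as CPM per kilobase of exon (the union of a gene's annotated exons). In control libraries the order was *ERBB2*, *ERBB3*, *AREG*, *TGFA*, *EGFR*, *HBEGF*, *BTC*, *ERBB4* and *EREG*, and no neighbours in it overlapped across the 3 libraries. *ERBB2* was at 1209, 1298 and 1293 CPM per kilobase in the 3 libraries, and *ERBB3*, next in order, at 33.6 ± 0.315 (SD, n = 3, as for the values that follow). *AREG* was at 25.9 ± 1.83, *TGFA* at 14.1 ± 0.549 and *EGFR* at 4.19 ± 0.218. In IGF2BP3 KD libraries *AREG* at 23.5 ± 1.99 moved above *ERBB3*, which was at 12.2 ± 0.190. *TGFA* was next, at 11.7 ± 0.161, a ratio of *ERBB3* to *TGFA* of 1.05 that depends on the length used. *EGFR* rose to 6.95 ± 0.278 and kept its place. With the length of the main coding transcript in place of the exon union the order was the same in both groups, but *ERBB3* was at 25.5 ± 0.395 and *TGFA* at 13.9 ± 0.192 in IGF2BP3 KD libraries, well apart.

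**Figure D3:**
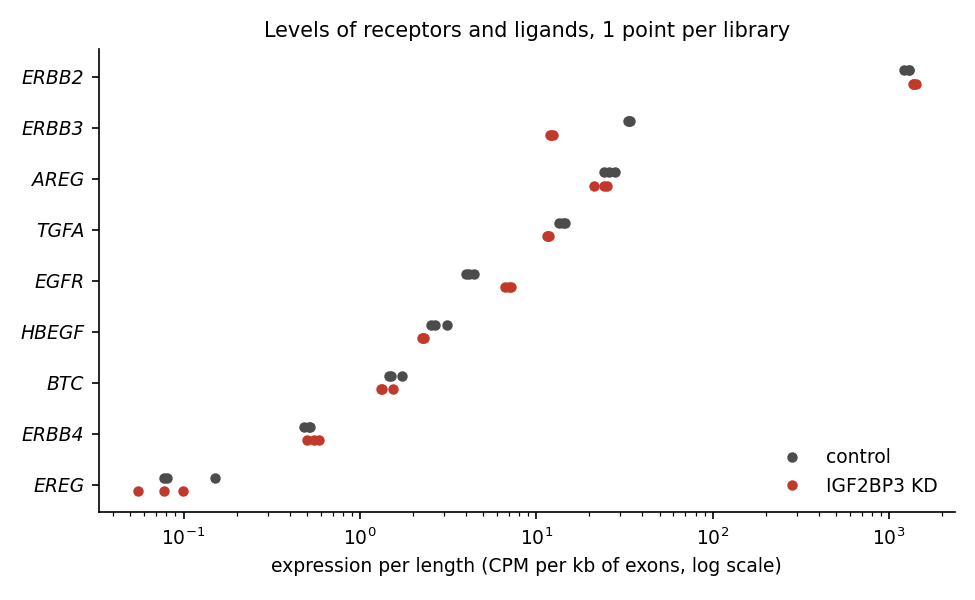
Level per kilobase of exon of each tested receptor and ligand, on a log axis, in the libraries of both groups. *ERBB2* lies above 1000 CPM per kilobase in every library. *ERBB3* drops from a mean of 33.6 to 12.2, below *AREG*, while *EGFR* goes from 4.19 to 6.95.

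These changes moved the balance among the receptor mRNAs. *ERBB2* made up 97.1% of the receptor mRNA per length in control libraries and 98.6% in IGF2BP3 KD libraries. The ratio of *ERBB2* to *ERBB3* per kilobase was 36.0, 39.0 and 38.1 in control libraries and 114, 111 and 116 in IGF2BP3 KD libraries, with means of 37.7 ± 1.54 and 114 ± 2.61 (SD, n = 3 each). The groups were far apart in this ratio. The ratio of *ERBB3* to *EGFR* went from 8.39, 8.06 and 7.66 to 1.71, 1.87 and 1.7. Among the receptors other than *ERBB2*, *ERBB3* made up 87.7% ± 0.389 of the mRNA in control and 62.0% ± 1.18 in IGF2BP3 KD libraries, and *EGFR* 10.9% ± 0.451 and 35.3% ± 1.18 (SD, n = 3 each). The summed level of these 3 receptors was 38.3 ± 0.473 and 19.7 ± 0.231 CPM per kilobase (SD, n = 3 each). On the ligand side *AREG* made up 58.3% of the ligand mRNA per length in control and 60.3% in IGF2BP3 KD libraries. *TGFA* made up 30.7%, 32.2% and 32.4% in control and 29.5%, 31.6% and 28.9% in IGF2BP3 KD libraries, so the groups overlapped. These ratios are descriptions with no test.

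The other genes of the pathway were read by role from lists. Over 100 tested genes, 25 were lower and 20 higher, or 45.0% called, against 20.4% of all tested genes and 35.8% of the 9857 genes whose mean CPM was 10 or more, as it was for 91 of the 100. The median log2 fold change was -0.02, and 0.01 over all genes tested. For the lists that follow, the shares over all tested genes were 10.6% lower and 9.87% higher. Among genes whose mean CPM was 10 or more they were 19.3% and 16.5%.

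Genes that turn receptors over or dampen them held the largest falls. Of 35 tested, 12 were lower (34.3%) and 6 higher (17.1%), with a median of -0.07. The share of higher genes was close to the 16.5% among genes whose mean CPM was 10 or more, as it was for 34 of the 35. *LRIG1*, a membrane protein that promotes the loss of ERBB receptors, went from 22.2 ± 0.450 to 13.6 ± 0.769 CPM (SD, n = 3 each), a log2 fold change of -0.71 (SE 0.07, adjusted p = 4.3e-05 by edgeR). Its exons share 2669 of 7043 bases with *SLC25A26* on the opposite strand. *NEDD4*, a ubiquitin ligase, went from 59.0 to 37.7 CPM (log2 fold change -0.65, adjusted p = 2.0e-05 by edgeR). *PTPN1*, a phosphatase that acts on receptor tyrosine kinases, went from 66.8 to 43.4 CPM (log2 fold change -0.62, adjusted p = 9.2e-06 by edgeR). *ERRFI1*, an inhibitor of the EGFR kinase, had a log2 fold change of -0.19 (adjusted p = 0.00365 by edgeR). *RNF41*, a ubiquitin ligase that acts on ERBB3, had -0.26 with an adjusted p of 0.0171 by edgeR. That call was lost without IGF2BP3 KD replicate 1, with an adjusted p of 0.0683, and without control replicate 1, with 0.0629. *SPRED2*, an inhibitor of the RAS pathway, rose with a log2 fold change of 0.28 (adjusted p = 6.8e-04 by edgeR), and *CBL*, a ubiquitin ligase for EGFR, had -0.07 (adjusted p = 0.494 by edgeR).

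Adaptors and proximal signalling genes went both ways, with 7 lower (31.8%) and 5 higher (22.7%) of 22 and a median of 0.00. *PTPN11*, the phosphatase SHP2 that links receptors to RAS, went from 408 ± 13.4 to 311 ± 4.28 CPM (SD, n = 3 each; log2 fold change -0.39, adjusted p = 5.7e-06 by edgeR). *CRKL*, an adaptor, fell with a log2 fold change of -0.27 (adjusted p = 8.4e-04 by edgeR). *GAB2*, a docking protein, rose from 26.2 to 34.4 CPM (log2 fold change 0.40, adjusted p = 0.00187 by edgeR). *GRB2*, the adaptor that brings SOS to phosphorylated receptors, rose from 127 to 150 CPM (log2 fold change 0.24, adjusted p = 0.00143 by edgeR). *SHC1* had 102 CPM in both groups.

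Of 16 tested genes for shedding and traffic of ligands, 2 were lower (12.5%) and 3 higher (18.8%), with a median of -0.04. *ADAM17*, the main protease that releases TGFA and AREG, fell from 61.1 to 52.6 CPM (log2 fold change -0.22, adjusted p = 0.00917 by edgeR). Its exons share 1645 of 15964 bases with *IAH1* on the opposite strand. *CNIH1*, which takes part in the export of cargo from the endoplasmic reticulum, fell with -0.27 (adjusted p = 0.00209 by edgeR). *NKD2*, which escorts TGFA to the cell surface, rose from 11.8 ± 0.798 to 19.5 ± 1.05 CPM (SD, n = 3 each; log2 fold change 0.72, adjusted p = 9.5e-05 by edgeR). *CD9*, a tetraspanin, rose with 0.17 (adjusted p = 0.00380 by edgeR). *ADAM10* and *RHBDF2* had log2 fold changes of -0.06 each, with adjusted p-values of 0.425 and 0.666 by edgeR.

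Among 12 partners and chaperones, 3 were lower (25.0%) and 4 higher (33.3%). *HSP90AB1* fell and *HSP90AA1* rose, with log2 fold changes of -0.12 and 0.17 (adjusted p = 4.0e-04 and 0.00297 by edgeR). Both encode HSP90, the chaperone on which ERBB2 depends. *MET*, another receptor tyrosine kinase, fell with -0.17 (adjusted p = 0.00557 by edgeR), and *ITGB4*, an integrin subunit, rose with 0.16 (adjusted p = 0.00365 by edgeR). *PA2G4*, whose product binds ERBB3, fell with -0.14 (adjusted p = 0.00849 by edgeR). *MUC4*, a mucin that binds ERBB2, was low at 2.63 and 2.38 CPM (adjusted p = 0.695 by edgeR).

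Of 15 tested transcription regulators listed for the receptor genes, 1 was lower and 2 were higher. That is a share of 20.0%, close to the 20.4% of all tested genes. It was below the 35.8% among genes whose mean CPM was 10 or more, as it was for 13 of the 15. *ELF3*, an epithelial factor, fell from 399 to 332 CPM (log2 fold change -0.27, adjusted p = 3.7e-05 by edgeR). *FOXO4* rose with 0.37 (adjusted p = 0.00157 by edgeR) and *CTBP2* with 0.24 (adjusted p = 0.00268 by edgeR), although *CTBP2* shares 3416 exon bases with *ZRANB1*. *TFAP2A* and *TFAP2C*, factors that bind the *ERBB2* promoter, had -0.06 and 0.23, with adjusted p-values of 0.864 and 0.0673 by edgeR.

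**Figure D4:**
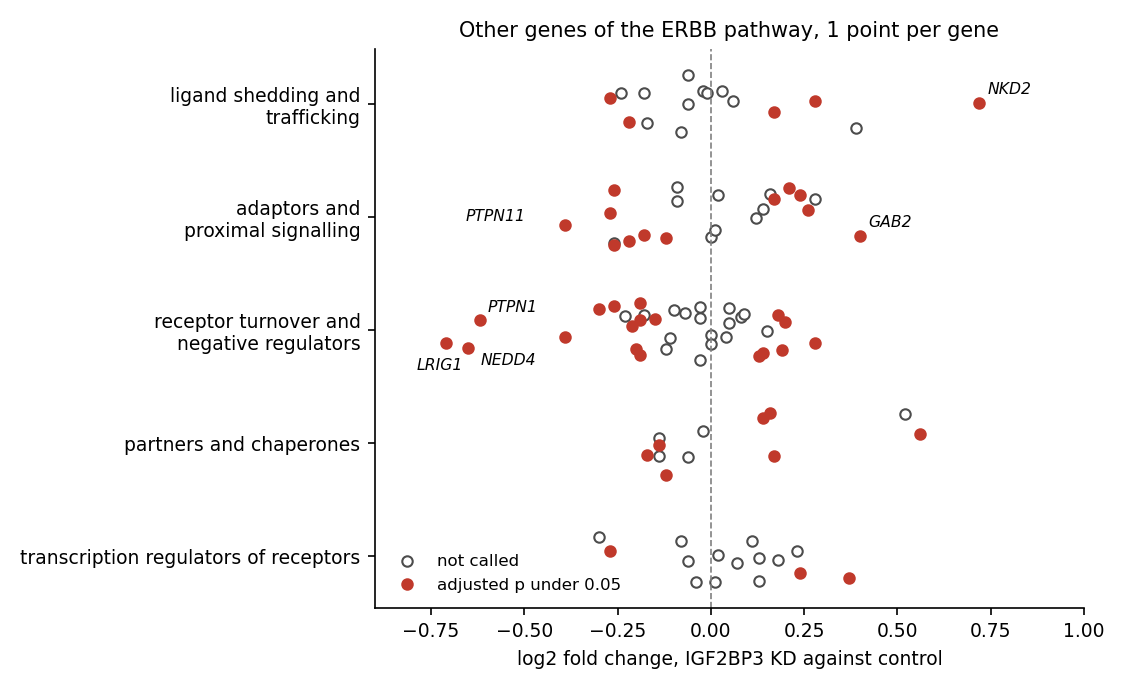
Log2 fold change of the tested pathway genes by role, IGF2BP3 KD against control, 1 point per gene, with filled points at an adjusted p under 0.05 by edgeR. *LRIG1*, *NEDD4* and *PTPN1* lie farthest to the left, at -0.71, -0.65 and -0.62, and *NKD2* lies farthest to the right at 0.72.

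Some genes followed the receptors closely across the 6 libraries. Likeness was measured as the root mean square difference of log2 CPM, centred on the control mean, over the 6 libraries. Each receptor was compared with 14288 genes. Nearest to *ERBB3* were *TBC1D5* at 0.0668, *SGPP1* at 0.117 and *RHOA* at 0.126. *RHOA*, a small GTPase of the cytoskeleton, went from 418 to 172 CPM (log2 fold change -1.28, adjusted p = 8.4e-10 by edgeR). Nearest to *EGFR* were *FLOT2*, *MPZL2* and *GMCL1*, at 0.0355, 0.0444 and 0.0521, with log2 fold changes of 0.72, 0.71 and 0.71. Nearest to *ERBB2* were *SMCR8*, *DNAJB2* and *USP32*, at 0.0128, 0.0130 and 0.0143, and their changes were not firm. *DNAJB2* was not called (adjusted p = 0.121 by edgeR). *SMCR8* (adjusted p = 0.0446 by edgeR) lost its call whichever library was left out, and *USP32* (adjusted p = 0.0324 by edgeR) kept its call in 1 of the 6 such fits, the one without control replicate 2. The measure uses the same libraries as the changes above, so it adds no test.

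The words can be set beside these values. *ERBB3*, the only member with 2 copies of GATTACT, was lower, and *EGFR*, the tested receptor with ACACATC, was higher. *ERBB4*, *EREG* and *BTC*, with 1 copy of GATTACT each, did not pass the test and had wide intervals. *TGFA* fell and *ERBB2* rose with neither word. Over all tested coding genes, 35.1% of those with GATTACT were lower and 6.72% higher, 47.7% of the 107 with at least 2 copies were lower, and 28.1% of those with ACACATC were higher and 10.7% lower. The background for these shares is the 13995 tested coding genes with a 3′ UTR, of which 2005 (14.3%) were lower and 1820 higher. Of the 11802 genes with neither word, 1540 were lower and 1400 (11.9%) higher. Among the other pathway genes, 10 held GATTACT and 6 of them were lower, *PTPN1*, *CRKL* and *CNIH1* included, while *CTBP2* was higher. Only 1 of the 10 held GATTACT at least 2 times. That gene, which also held ACACATC, was not called and had a log2 fold change of -0.18. Of the 16 with ACACATC, 5 were lower (31.2%), *ERRFI1* and *RNF41* among them, and 4 higher (25.0%), *NKD2* and *SPRED2* among them. A match is a description of the letters and not a binding site.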

How the data were processed

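RNA-seq libraries of OE-19 cells, 3 control and 3 IGF2BP3 KD, were analysed from the deposited counts per gene, to which the authors had applied no normalization. Per the submitters' processing notes, fastp, HISAT2 and featureCounts were used with hg38. Their versions, the annotation and the strand setting are not given in the sources used here. Groups came from the sample titles. For the 44 identifiers listed more than 1 time, the first entry was kept and the 132 later entries were dropped. Total counts were 53453621 to 70026203. A chi-square per degree of freedom was 9.86 to 17.6 within groups and 46.3 to 58.2 between them, so no library repeated another.

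The main test was the quasi-likelihood F test of edgeR 4.0.16 (R 4.3.3) on a 2-group model with no block. It used TMM factors and the filterByExpr filter (minimum count 10, minimum total 15), and p-values were adjusted by Benjamini-Hochberg over 19778 genes, with calls at 0.05. The code was tested on simulated data. CPM is the count over the TMM-scaled total of the tested genes. Positions, overlaps, exon lengths and 3′ UTRs came from GENCODE v44.

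The members, the pathway lists and the words were chosen with earlier results of these data known. Named were all members, *IGF2BP3*, up to 4 called genes per list by p-value, a preset group of pathway genes, the 3 genes nearest to each called receptor, and genes that overlap a member's exons. The alternatives were DESeq2 1.42.0, scaling by RLE, testing without the filter, a filter of 10 counts in all libraries, a threshold of 0.01, a block for the replicate number, omission of single libraries, summed overlapping genes and the main transcript's length.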

Additional observations from a re-analysis of the deposited data

How the results depend on the processing

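The calls of *EGFR*, *ERBB2*, *ERBB3* and *TGFA*, and the lack of a call for the other 5 tested members, were the same under every alternative run, except that DESeq2 gave no adjusted p for *EREG*. Genes called over the whole table were 2088 lower and 1953 higher, against 2416 and 2074 with DESeq2, 1768 and 1354 without the low-count filter and 2141 and 1905 with RLE scaling. Higher pathway genes numbered 20, against 13 without the filter and 13 at an adjusted p under 0.01, and 14 to 19 with 1 library left out. With the main transcript's length, control CPM per kilobase was 6.74 for *EGFR*, 2869 for *ERBB2*, 70.1 for *ERBB3*, 0.543 for *ERBB4*, 34.4 for *AREG*, 3.50 for *HBEGF* and 16.8 for *TGFA*. The *ERBB2* to *ERBB3* ratio was then 40.9 in control and 124 in IGF2BP3 KD, the *ERBB3* to *EGFR* ratio 10.4 and 2.28, and the *TGFA* share of ligand mRNA 29.8% and 28.1%, since the length enters these values directly. With 1 library left out the *ERBB2* to *ERBB3* ratio was 37.1 to 38.6 and 112 to 115.

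Libraries with the same replicate number did not deviate together (r from -0.0315 to 0.00915, against -0.0202 to 0.0217 for other pairs). The check cannot show whether they shared a culture or a preparation, and the labels do not say. With the number as a replicate block, the log2 fold changes were -1.46 for *ERBB3*, 0.73 for *EGFR*, 0.13 for *ERBB2* and -0.27 for *TGFA*, all still called, and the block gave 2026 lower and 1875 higher genes. Of 48 tested genes named besides the members and *IGF2BP3*, 6 (*RNF41*, *KRT8*, *KRT18*, *SMCR8*, *USP32* and *MIEN1*) lost a call under at least 1 alternative, *KRT8* and *KRT18* under the block too.

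*EREG* had few counts and *NRG1* almost none. The intervals of *ERBB4* (-0.14 to 0.38), *BTC* (-0.51 to 0.18) and *AREG* (-0.30 to 0.03) leave room for changes as large in size as that of *TGFA* (-0.27).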
